A study of Homo sapiens with 4 samples.

Results

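The genes described here encode the ephrin and semaphorin guidance cues and their receptors, the Eph receptor tyrosine kinases and the plexins. Members were taken by name: protein-coding genes whose current RefSeq symbol is EPHA or EPHB, EFNA or EFNB, SEMA of classes 3 to 7, or PLXNA to PLXND with a number. The rule gave 51 of the 27685 gene IDs in the files, 28 of them ligands (8 ephrins and 20 semaphorins) and 23 of them receptors (14 Eph receptors and 9 plexins). Every such symbol of RefSeq was found, and each member stood on a single row of each file. RNA-seq was done on NCC-IT-A3, a line of embryonal carcinoma, the malignant germ cell tumour whose cells resemble early embryonic cells. Of the 4 libraries, 2 came from cells kept 4 days with 100 nM barasertib, which inhibits the mitotic kinase Aurora B, and 2 from cells given the solvent DMSO. All cells grew in RPMI medium with serum, and all libraries come from the same line. Whether the 2 libraries of each treatment are separate cultures is not said in the labels, and the p-values therefore reflect the spread of these samples alone, which may be technical.

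Ephrins and Eph receptors act between touching cells. The receptor signals into its own cell when an ephrin on a neighbour binds it, and the ephrin can signal back. Ephrin-A proteins are held by a lipid anchor and mostly bind EphA receptors, whereas ephrin-B proteins span the membrane and mostly bind EphB receptors. Semaphorins bind plexins, whose cytoplasmic part switches off small GTPases of the RAS and RAP kind. Class 3 semaphorins are secreted and mostly need a neuropilin beside the plexin, classes 4 to 6 span the membrane, and class 7 has a lipid anchor. Known first from growing axons, these systems also keep cell groups apart in the early embryo and shape blood vessels.

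The values are TPM, a level scaled for transcript length and for the total of the library, so levels of different genes can be set side by side. They are shares of each library, and in bulk samples fewer cells that express a gene and less of its RNA per cell cannot be told apart. The ratio of deposited coverage to FPKM put 4.22 to 4.59 Gb of aligned bases behind each library. Differences are means of log2(TPM + 1) in barasertib minus DMSO with their standard error (n = 2 libraries a group), a scale that understates changes of low genes. They were tested with limma (two-sided) over the 13938 genes that averaged 1 TPM or more, and a gene is called at a Benjamini-Hochberg adjusted p under 0.05. The median difference of all tested genes was 0.11 and moved by -0.12 after median-of-ratios scaling and after quantile normalisation, so calls that hold under all 3 scalings are also counted. All 10 markers of embryonal carcinoma cells passed the minimum, with POU5F1 (OCT4) at 3974 ± 35.4 TPM with barasertib and 3616 ± 130.1 TPM with DMSO. Of these markers 5 were called higher (POU5F1, NANOG, LIN28A, DNMT3B and DPPA4) and 2 lower (SOX2 and CRIPTO). Among all tested genes 22.0% were called higher and 7.44% lower. Under all 3 scalings NANOG and DNMT3B stayed higher and SOX2 and CRIPTO lower, against 10.0% and 7.05% of all tested genes. DPPA4 was at 90.4 and 188 TPM in the DMSO libraries, and its limma adjusted p reached 0.255 over the alternative settings. NANOG averaged 252 TPM with barasertib and 163 TPM with DMSO, and SOX2 averaged 389.6 TPM with barasertib and 451 TPM with DMSO. 

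Markers of other cell types were summed per library. The 7 endothelial markers summed to 3.82 and 2.90 TPM with barasertib and 0.850 and 0.420 TPM with DMSO, mostly CLDN5 and ESAM. CDH5 and TEK were at 0 in both DMSO libraries and in barasertib replicate 1, and at 0.025 and 0.087 TPM in barasertib replicate 2. The 10 neuronal markers summed to 204 and 202 TPM with barasertib and 199 and 211 TPM with DMSO, mostly TUBB3 at 95.8 TPM with barasertib and 75.3 TPM with DMSO and STMN2 at 93.0 TPM with barasertib and 116 TPM with DMSO, with PAX6 near 0. The 7 fibroblast markers summed to 13.6 and 13.8 TPM with barasertib and 8.70 and 9.94 TPM with DMSO, mostly PDGFRA at 10.3 TPM with barasertib and 7.33 TPM with DMSO. The 6 trophoblast markers summed to 61.3 and 63.8 TPM with barasertib and 55.0 and 53.6 TPM with DMSO, mostly TFAP2C, with KRT7 and CGB3 at 0 in all libraries. The 7 endoderm and yolk sac markers summed to 2.02 and 1.25 TPM with barasertib and 0.538 and 0.792 TPM with DMSO, with TTR at 0. The part of these marker levels in the results below was not tested.

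Messages of 9 receptors and 7 ligands were higher with barasertib than with DMSO, and 1 of each was lower. Of the 42 tested members, 16 rose and 2 fell, against 22.0% higher and 7.44% lower among all tested genes, and for the members these shares were 38.1% and 4.76%. Among the 16 tested receptors 9 rose and 1 fell (56.2% and 6.25%), and among the 26 tested ligands 7 rose and 1 fell (26.9% and 3.85%). The receptors that rose were EPHA1, EPHA2, EPHA4, EPHA8, EPHB3, EPHB4, PLXNB1, PLXNB2 and PLXND1, and the ligands were EFNA3, EFNB2, SEMA3A, SEMA3B, SEMA4A, SEMA6B and SEMA7A. The members that fell were the receptor PLXNC1 and the ligand EFNA5. Under all 3 scalings 14 members rose and 2 fell, against 10.0% and 7.05% of all tested genes, and PLXNB1 and PLXND1 were the calls that did not hold. The median difference was 0.43 for the receptors and 0.22 for the ligands, which is 0.32 and 0.11 above that of all tested genes. By family it was 0.69 for the Eph receptors, -0.004 for the plexins, 0.35 for the ephrins and 0.20 for the semaphorins. The plexin median thus lay below that of all tested genes. Ligands and receptors were not tested against each other. On the scale of TPM + 1, 3 members rose at least 2-fold (EPHA8, SEMA3B and SEMA6B), against 2.09% of all tested genes. EPHA8 and SEMA6B passed the minimum of 1 TPM only through the barasertib libraries, so SEMA3B alone remains without them. In TPM itself the ratio of means was also above 2 for EPHA1, at 2.71. No member fell 2-fold on the scale of TPM + 1, against 0.624% of all tested genes. In 26 of the 42 tested members both barasertib libraries lay above both DMSO libraries, against 49.1% of all tested genes, and in 5 members both lay below, against 19.7%. Without EPHA8 and SEMA6B the count above was 24 of 40 members.

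With barasertib replicate 1 left out 8 members rose, with barasertib replicate 2 left out 9, and with either DMSO library left out 15, while 2 fell each time. Over all tested genes the higher calls were 1365 to 2181 with a library left out, against 3071 with all 4. Whichever library was left out, 9 members kept their call: EPHA2, EPHA4, EPHB3, EPHB4, EFNB2, SEMA3A and SEMA7A among those that rose, and EFNA5 and PLXNC1. The remaining 9 members had a mean under 1 TPM and were not tested. EPHA8 and SEMA6B passed that minimum only through the barasertib libraries. Without them 14 of 40 members rose and 2 fell (35.0% and 5.0%, against 22.0% and 7.44% of all tested genes).

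**Figure D1:**
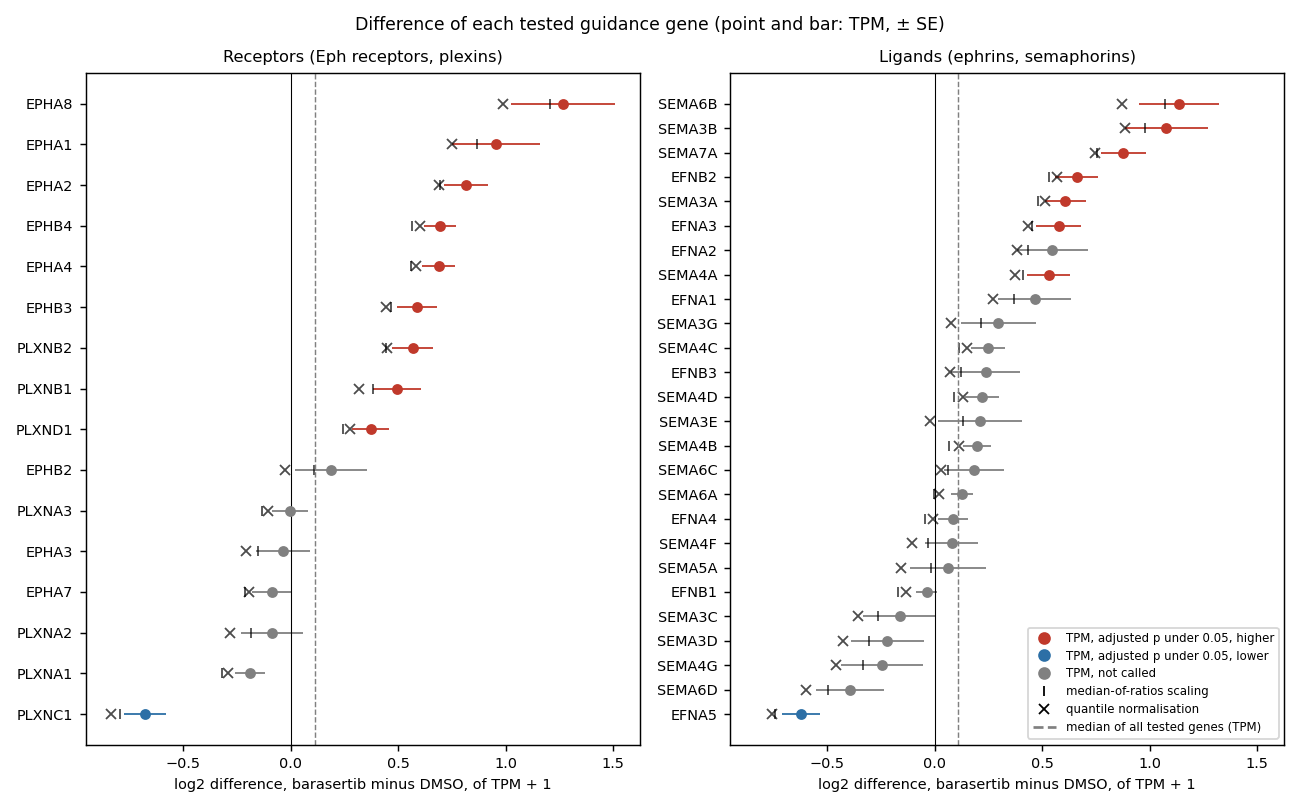
Log2 difference (barasertib minus DMSO, of TPM + 1) of the 16 tested receptors and 26 tested ligands, with points and bars for TPM ± SE, ticks and crosses for the other scalings and a dashed line at the median of all tested genes. The Eph receptors and plexins that rose fill the upper part of the receptor panel, whereas many ligands lie near the dashed line, and PLXNC1 and EFNA5 lie lowest in their panels.

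Promoter windows of RefSeq (build GRCh38.p14, 250 bases before to 50 after a transcript start) matched 46 members in 73 windows; EFNB3, EPHA10, SEMA3A, SEMA6A and SEMA6B were not matched. They are shown for the receptor EPHB4 and its ligand EFNB2, which rose together, and for the members that fell, EFNA5 and PLXNC1. The EPHB4 window is chr7:100827474-100827773 (minus strand), that of EFNB2 chr13:106535613-106535912 (minus strand), that of EFNA5 chr5:107670888-107671187 (minus strand) and that of PLXNC1 chr12:94148327-94148626 (plus strand, the more upstream of 2 windows). Capitals mark the GC box GGGCGG and the CCAAT box CCAAT, read on either strand.
EPHB4: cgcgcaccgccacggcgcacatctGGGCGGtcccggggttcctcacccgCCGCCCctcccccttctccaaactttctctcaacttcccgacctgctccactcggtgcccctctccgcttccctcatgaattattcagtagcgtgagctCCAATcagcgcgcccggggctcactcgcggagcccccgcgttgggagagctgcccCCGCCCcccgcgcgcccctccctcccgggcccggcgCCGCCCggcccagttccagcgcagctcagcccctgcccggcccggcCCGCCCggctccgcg
EFNB2: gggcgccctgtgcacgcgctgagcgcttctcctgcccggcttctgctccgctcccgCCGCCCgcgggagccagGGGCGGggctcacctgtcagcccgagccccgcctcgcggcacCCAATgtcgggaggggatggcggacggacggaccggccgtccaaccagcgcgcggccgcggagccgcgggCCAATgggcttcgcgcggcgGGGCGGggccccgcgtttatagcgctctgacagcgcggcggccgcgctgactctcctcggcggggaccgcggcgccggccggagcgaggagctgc
EFNA5: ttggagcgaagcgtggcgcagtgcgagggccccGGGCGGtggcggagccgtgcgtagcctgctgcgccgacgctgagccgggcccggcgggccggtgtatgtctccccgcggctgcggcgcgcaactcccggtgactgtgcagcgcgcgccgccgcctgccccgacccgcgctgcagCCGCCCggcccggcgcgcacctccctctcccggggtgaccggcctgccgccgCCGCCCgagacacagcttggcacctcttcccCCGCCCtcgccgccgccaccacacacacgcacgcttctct
PLXNC1: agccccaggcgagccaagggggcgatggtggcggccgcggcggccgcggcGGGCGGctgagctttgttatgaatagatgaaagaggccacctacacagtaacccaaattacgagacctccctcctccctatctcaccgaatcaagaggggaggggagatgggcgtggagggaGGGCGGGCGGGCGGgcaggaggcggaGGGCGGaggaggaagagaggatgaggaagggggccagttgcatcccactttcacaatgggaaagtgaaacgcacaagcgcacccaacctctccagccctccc
The 4 windows held 5, 3, 4 and 5 GC boxes in the order shown, some of them overlapping in PLXNC1, and were rich in G and C, at 74.3%, 78.7%, 78.0% and 64.0%. A CCAAT box stood once in the EPHB4 window and 2 times in the EFNB2 window, and in neither window shown for the genes that fell. Among all members called higher 10 of 24 windows held it (41.7%), and among those tested and not called 8 of 32 (25.0%). The members that fell had 3 windows in all, too few for a comparison. Over all members 74.0% of the windows held a GC box, against 45.0% of all 35116 promoter windows, and 31.5% held a CCAAT box, against 34.6%. Member windows were also richer in G and C, at a median of 65.7%, against 58.7% of all windows. The part of this in the GC box shares was not tested. Other motifs were also searched on both strands. The TEAD motif GGAATG stood in 8 of the 73 member windows and in 4928 of all 35116 windows (14.0%). It stood in 6 of 24 windows of members called higher (25.0%) and in 0 of 32 of those tested and not called. These splits of the CCAAT box and the TEAD motif by call were not tested. The TATA box TATAAA stood in 4.11% of member windows and 11.5% of all. The E-box CACGTG stood in 5.48% and 7.26%, and the CHR element TTTGAA in 8.22% and 15.2%. Several windows can belong to the same gene and overlap, so these are descriptions of letters and not of binding.

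The rises among receptors lay mostly in the Eph family. Of the 9 Eph receptors tested, 6 rose and none fell, at a median difference of 0.69, and all 6 rose under the 3 scalings. The share that rose was 66.7%, against 22.0% of all tested genes, or 10.0% of them under all 3 scalings. EPHA8, among these 6, passed the minimum only through the barasertib libraries. The summed level of the Eph receptors was 134 and 128 TPM in the barasertib libraries, against 84.2 and 87.1 TPM in the DMSO libraries. EPHB4, the ephrin-B2 receptor known for separating arteries from veins, was the most abundant of them, with 47.4% and 43.9% of that sum with barasertib and 42.9% and 42.5% with DMSO. It lies at chr7:100400187-100425143 (hg19, minus strand) and stood at 63.5 and 56.4 TPM in the barasertib libraries, against 36.1 and 37.0 TPM in the DMSO libraries. The groups did not overlap, and the difference was 0.70 ± 0.07 (limma adjusted p = 0.00212). EPHB3 (chr3:184279587-184300196 in hg19), a receptor that sorts cells in the intestinal crypt, had 10.3 and 10.7 TPM in the barasertib libraries, against 6.42 and 6.93 TPM in the DMSO libraries. It was higher in both barasertib libraries, by 0.59 ± 0.09 (limma adjusted p = 0.00772). EPHB2, which acts in neurons and crypt cells, lay at 1.62 and 1.70 TPM in the barasertib libraries, against 1.41 and 1.26 TPM in the DMSO libraries, and its difference of 0.19 ± 0.17 (limma adjusted p = 0.430) was not called and was -0.027 after quantile normalisation.

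Among EphA receptors, EPHA4 and EPHA2 gave the firmest rises. EPHA4 (chr2:222282747-222438922 in hg19), which binds ephrins of both classes, was at 20.9 and 22.1 TPM in the barasertib libraries, against 13.0 and 12.9 TPM in the DMSO libraries. Its groups lay far apart relative to the replicate spread, with a difference of 0.69 ± 0.08 (limma adjusted p = 0.00227). EPHA2 (chr1:16450832-16482604 in hg19), a receptor found on many epithelial and tumour cells, was at 14.8 and 12.8 TPM in the barasertib libraries, against 7.20 and 7.54 TPM in the DMSO libraries. This was a difference of 0.82 ± 0.10 (limma adjusted p = 0.00341). EPHA2 passed EPHA7 in level with barasertib, ranking 3 in the family, against rank 4 with DMSO.

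EPHA1 and EPHA8 were the low-level receptors that rose. EPHA1 was at 3.16 and 3.08 TPM in the barasertib libraries, against 1.51 and 0.799 TPM in the DMSO libraries, a difference of 0.96 ± 0.20 (limma adjusted p = 0.0187). With barasertib replicate 1 or 2 left out it was not called (limma adjusted p = 0.0970 and 0.0895), and its adjusted p ran from 0.00781 to 0.0970 over all settings tried. EPHA1 overlaps the oppositely oriented gene ZYX, which stood at 202 TPM with barasertib and 121 TPM with DMSO; the sources used here do not say whether reads were assigned by strand, so reads of the 2 genes may not be told apart. EPHA8, an EphA receptor of the developing nervous system, was at 2.48 and 1.82 TPM in the barasertib libraries, against 0.109 and 0.526 TPM in the DMSO libraries. Its difference was 1.27 ± 0.24 (limma adjusted p = 0.0132), without barasertib replicate 2 it was not called (limma adjusted p = 0.0547, range 0.00433 to 0.0547), and without barasertib replicate 1 it fell below the minimum.

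EPHA3 and EPHA7 were not called. EPHA7, the third most abundant Eph receptor over the 4 libraries, had 11.1 and 12.4 TPM in the barasertib libraries, against 12.1 and 12.9 TPM in the DMSO libraries. The groups overlapped, and the difference was -0.09 ± 0.09 (limma adjusted p = 0.520). EPHA3 had 5.81 and 6.94 TPM in the barasertib libraries, against 6.11 and 7.005 TPM in the DMSO libraries, again with overlap, with a difference of -0.04 ± 0.13 (limma adjusted p = 0.847). Of the 5 Eph receptors below 1 TPM, EPHA6 was listed at 0 in every library and EPHA5 and EPHB1 in all but 1 DMSO library. The others, EPHA10 and EPHB6, are known for kinase domains without activity. EPHA10 was at 0.147 and 0.122 TPM in the barasertib libraries, against 0.139 and 0.0370 TPM in the DMSO libraries, and EPHB6 at 0.178 and 0.262 TPM in the barasertib libraries, against 0.0550 and 0.0520 TPM in the DMSO libraries.

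Ephrins were abundant, and most were not called. The summed level of the 8 ephrins was 236 and 228 TPM in the barasertib libraries, against 217 TPM in each DMSO library. Of these 8, 2 rose and 1 fell (25.0% and 12.5%, against 22.0% and 7.44% of all tested genes). EFNB1, an ephrin-B whose loss disturbs craniofacial development, was the most abundant of all 51 members. It was at 138 and 132 TPM in the barasertib libraries, against 139 and 138 TPM in the DMSO libraries, and the groups overlapped, with a difference of -0.04 ± 0.05 (limma adjusted p = 0.604). EFNB2 (chr13:107142079-107187388 in hg19), the partner of EPHB4, had 31.7 and 32.9 TPM in the barasertib libraries, against 18.3 and 22.0 TPM in the DMSO libraries. It rose by 0.66 ± 0.10 (limma adjusted p = 0.00611), and its rank among the ephrins was 2 with barasertib and 3 with DMSO. EFNB3, the remaining ephrin-B, was at 7.23 and 5.14 TPM in the barasertib libraries, against 5.12 and 4.94 TPM in the DMSO libraries, and its difference of 0.24 ± 0.16 (limma adjusted p = 0.303) was not called.

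The ephrin-A ligands split. EFNA5 (chr5:106712590-107006596 in hg19), which repels growing axons in the visual system, was at 7.46 and 7.84 TPM in the barasertib libraries, against 11.985 and 12.6 TPM in the DMSO libraries. It fell by 0.62 ± 0.09 on the log2 scale (limma adjusted p = 0.00542), and was lower in both barasertib libraries. EFNA3 was at 10.7 and 10.8 TPM in the barasertib libraries, against 7.43 and 6.41 TPM in the DMSO libraries and rose by 0.58 ± 0.10 (limma adjusted p = 0.0107). EFNA3 was not called when barasertib replicate 1 or 2 was left out (limma adjusted p = 0.0585 and 0.0594, range 0.00460 to 0.0594). EFNA4 was at 29.6 and 29.7 TPM in the barasertib libraries, against 28.9 and 26.9 TPM in the DMSO libraries. Its difference of 0.09 ± 0.07 (limma adjusted p = 0.383) was not called and was below 0 after median-of-ratios scaling (-0.0453) and quantile normalisation (-0.009). EFNA2, at 8.16 and 5.74 TPM in the barasertib libraries, against 4.25 and 4.50 TPM in the DMSO libraries, missed the threshold with a difference of 0.55 ± 0.17 (limma adjusted p = 0.0524); with barasertib replicate 2 left out it was called higher (limma adjusted p = 0.0341, range 0.0312 to 0.173). EFNA1, the ephrin best known for binding EPHA2, was the least abundant of the family. It was at 2.80 and 3.81 TPM in the barasertib libraries, against 2.16 and 2.03 TPM in the DMSO libraries, higher in both barasertib libraries and not called, with a difference of 0.47 ± 0.17 (limma adjusted p = 0.0856).

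**Figure D2:**
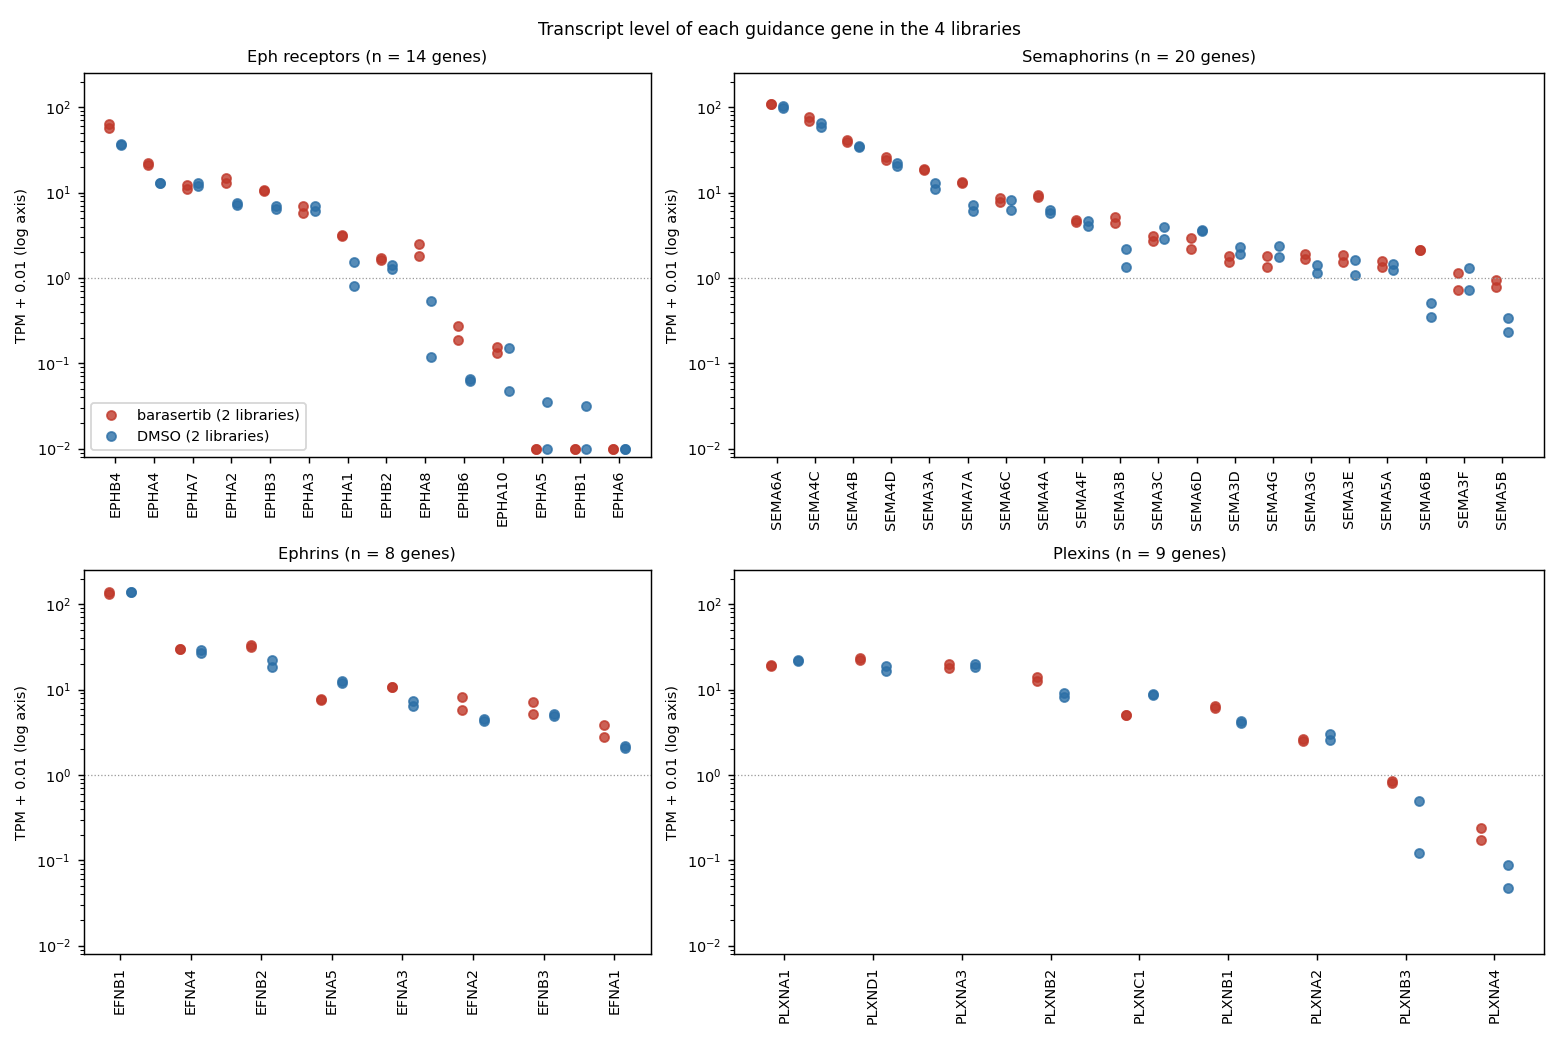
TPM (plus 0.01, on a log axis) of all 51 members in each of the 4 libraries, sorted by mean level within each family, with a dotted line at 1 TPM. EPHB4, EFNB1, SEMA6A, PLXNA1 and PLXND1 lead their families, and the barasertib and DMSO points of EPHB4, EPHA4 and EPHA2 stand apart.

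Semaphorins held the larger part of the summed ligand level. Their sum was 326 and 321 TPM in the barasertib libraries, against 274 and 271 TPM in the DMSO libraries. Of 18 tested members 5 rose and none fell, and all 5 rose under the 3 scalings. The share that rose was 27.8%, against 22.0% of all tested genes, or 10.0% of them under all 3 scalings. SEMA6B, among these 5, passed the minimum only through the barasertib libraries. SEMA6A, a membrane-spanning semaphorin that signals through plexin-A receptors, was the most abundant. It was at 109 and 109.9 TPM in the barasertib libraries, against 97.7 and 102 TPM in the DMSO libraries, and its difference of 0.13 ± 0.05 (limma adjusted p = 0.105) was not called and was -0.0052 after median-of-ratios scaling. SEMA4C, a ligand of plexin-B2, was at 76.6 and 69.2 TPM in the barasertib libraries, against 64.6 and 57.9 TPM in the DMSO libraries. The difference of 0.25 ± 0.08 (limma adjusted p = 0.0619) missed the threshold, and with DMSO replicate 1 left out SEMA4C was called higher (limma adjusted p = 0.0443, range 0.0216 to 0.347). SEMA4B, of the same class, had 41.5 and 38.8 TPM in the barasertib libraries, against 34.3 and 35.4 TPM in the DMSO libraries, a difference of 0.20 ± 0.07 (limma adjusted p = 0.0694). The 3 most abundant ligands, EFNB1, SEMA6A and SEMA4C, held 57.6% and 56.7% of the summed ligand level with barasertib and 61.4% and 61.1% with DMSO, and none of the 3 was called.

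Among the secreted class 3, SEMA3A and SEMA3B rose. SEMA3A (chr7:83587659-83824217 in hg19), which makes axon growth cones collapse, was at 18.3 and 18.9 TPM in the barasertib libraries, against 12.8 and 10.995 TPM in the DMSO libraries. It rose by 0.61 ± 0.10 (limma adjusted p = 0.00703). SEMA3B, often described as a tumour suppressor, was at 4.33 and 5.19 TPM in the barasertib libraries, against 2.18 and 1.33 TPM in the DMSO libraries. It rose by 1.08 ± 0.19 (limma adjusted p = 0.0106), which was not called with barasertib replicate 1 or 2 left out (limma adjusted p = 0.0519 and 0.0743, range 0.00328 to 0.0743). SEMA3C, SEMA3D, SEMA3E and SEMA3G averaged between 1.26 and 3.38 TPM in each group, with differences from -0.22 to 0.30 that were not called; that of SEMA3E was -0.0207 after quantile normalisation. SEMA3F averaged 0.932 TPM with barasertib and 1.01 TPM with DMSO and fell short of the minimum.

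SEMA7A had the lowest adjusted p of the semaphorins. This lipid-anchored semaphorin, which binds plexin-C1 and integrins, was at 12.9 and 13.2 TPM in the barasertib libraries, against 7.18 and 6.12 TPM in the DMSO libraries. The barasertib libraries lay close together and well above both DMSO libraries, with a difference of 0.88 ± 0.10 (limma adjusted p = 0.00287). SEMA4A, known from immune cells and the retina, was at 8.79 and 9.47 TPM in the barasertib libraries, against 6.21 and 5.80 TPM in the DMSO libraries and rose by 0.53 ± 0.10 (limma adjusted p = 0.0126). Without barasertib replicate 2 SEMA4A was not called (limma adjusted p = 0.0668, range 0.00689 to 0.0668). SEMA6B had 2.13 and 2.10 TPM in the barasertib libraries, against 0.497 and 0.343 TPM in the DMSO libraries, a difference of 1.14 ± 0.19 (limma adjusted p = 0.00804). It could not be tested without either barasertib library, since its mean then fell below 1 TPM.

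The remaining semaphorins were not called. SEMA4D, the plexin-B1 ligand, had 24.3 and 26.0 TPM in the barasertib libraries, against 20.5 and 22.3 TPM in the DMSO libraries, a difference of 0.22 ± 0.08 (limma adjusted p = 0.0796). SEMA6D had 2.14 and 2.92 TPM in the barasertib libraries, against 3.68 and 3.55 TPM in the DMSO libraries, lower in both barasertib libraries, with a difference of -0.39 ± 0.16 (limma adjusted p = 0.111), and was called lower after quantile normalisation (limma adjusted p = 0.0478, range 0.0478 to 0.339). SEMA4F, SEMA4G, SEMA5A and SEMA6C had differences from -0.25 to 0.18, and those of SEMA4F and SEMA5A were below 0 after both other scalings. SEMA5B, below the minimum, was at 0.930 and 0.773 TPM in the barasertib libraries, against 0.332 and 0.221 TPM in the DMSO libraries; with no minimum it was called higher (limma adjusted p = 0.0371).

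Plexins changed in both directions. Of 7 tested, 3 rose and 1 fell (42.9% and 14.3%, against 22.0% and 7.44% of all tested genes). Under all 3 scalings 1 rose and 1 fell, against 10.0% and 7.05% of all tested genes. The plexin sum was 92.0 and 86.6 TPM in the barasertib libraries, against 82.3 and 84.0 TPM in the DMSO libraries. PLXNC1 (chr12:94542499-94701451 in hg19), the SEMA7A receptor, was at 5.01 and 5.08 TPM in the barasertib libraries, against 8.76 and 8.56 TPM in the DMSO libraries. It fell by 0.68 ± 0.10 on the log2 scale (limma adjusted p = 0.00547), with replicates close together in both groups. Its span includes part of the oppositely oriented gene CEP83, which averaged 13.0 TPM with barasertib and 13.1 TPM with DMSO. PLXNB2, the receptor of SEMA4C, was at 14.0 and 12.7 TPM in the barasertib libraries, against 8.28 and 9.05 TPM in the DMSO libraries. It rose by 0.57 ± 0.10 (limma adjusted p = 0.00873), but was not called with barasertib replicate 1 left out (limma adjusted p = 0.0554, range 0.00342 to 0.0554).

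PLXNB1 and PLXND1 gave weaker calls. PLXNB1, the receptor of SEMA4D, was at 6.49 and 6.06 TPM in the barasertib libraries, against 4.26 and 4.07 TPM in the DMSO libraries, a difference of 0.49 ± 0.11 (limma adjusted p = 0.0217). Whichever library was left out, PLXNB1 was not called (limma adjusted p = 0.0560 to 0.0973), nor after median-of-ratios scaling (limma adjusted p = 0.0537) or quantile normalisation (limma adjusted p = 0.0877, range 0.0161 to 0.0973). PLXND1, a plexin of blood vessel growth, was at 23.7 and 22.4 TPM in the barasertib libraries, against 16.5 and 18.6 TPM in the DMSO libraries, a difference of 0.37 ± 0.09 (limma adjusted p = 0.0239). Its call did not hold with barasertib replicate 1, barasertib replicate 2 or DMSO replicate 1 left out (limma adjusted p = 0.108, 0.0698 and 0.0998), nor after median-of-ratios scaling (0.0917) or quantile normalisation (0.0686), with a range of 0.0129 to 0.108. PLXND1 ranked 1 among plexins with barasertib and 3 with DMSO.

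Plexin-A receptors, the main partners of neuropilins, were not called higher. PLXNA1 was at 19.2 and 18.7 TPM in the barasertib libraries, against 21.7 and 21.9 TPM in the DMSO libraries. It was lower in both barasertib libraries, with a difference of -0.19 ± 0.07 (limma adjusted p = 0.0853). After median-of-ratios scaling it was called lower (limma adjusted p = 0.0218), as after quantile normalisation (0.0307), with a range of 0.0218 to 0.267. PLXNA3 was at 20.1 and 18.1 TPM in the barasertib libraries, against 19.7 and 18.6 TPM in the DMSO libraries, with overlapping groups and a difference of -0.004 ± 0.08 (limma adjusted p = 0.978). PLXNA2 averaged 2.56 TPM with barasertib and 2.79 TPM with DMSO, also with overlap. PLXNA4 at 0.196 TPM with barasertib and 0.0579 TPM with DMSO and PLXNB3 at 0.823 TPM with barasertib and 0.298 TPM with DMSO were below the minimum.

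Summed over the families, receptors stood at 226 and 215 TPM with barasertib, against 166 and 171 TPM with DMSO, and ligands at 562 and 549 TPM with barasertib, against 491 and 488 TPM with DMSO. The ratio of the ligand sum to the receptor sum was 2.49 and 2.55 in the barasertib libraries, against 2.95 and 2.85 in the DMSO libraries, with no overlap. Most of the receptor difference lay in the Eph receptors.

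**Figure D3:**
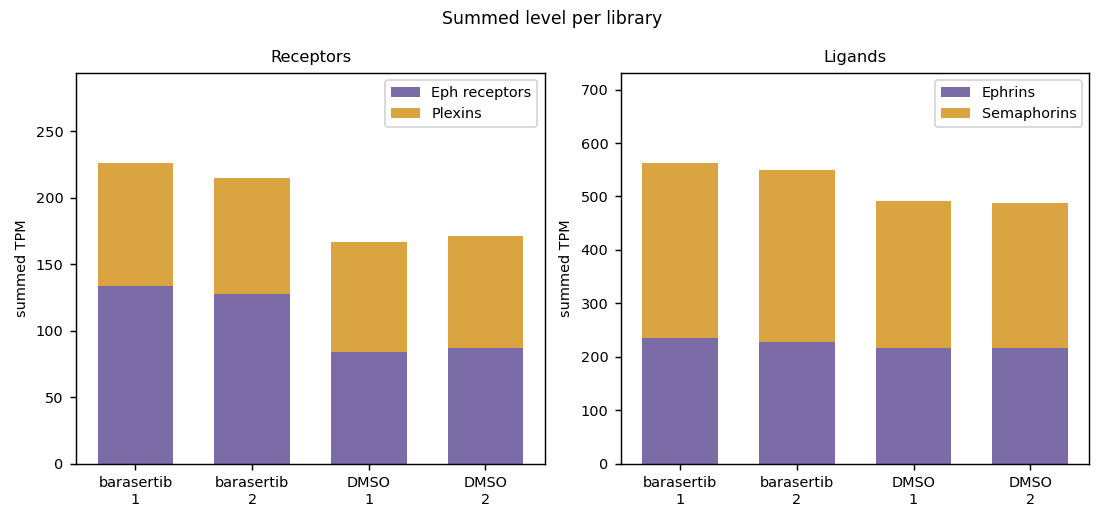
Summed TPM per library of the receptors (Eph receptors and plexins) and of the ligands (ephrins and semaphorins), barasertib libraries left of DMSO libraries. Eph receptor sums of 134 and 128 TPM stand above 84.2 and 87.1 TPM in DMSO, while the ephrin sums of 236 and 228 TPM lie near 217 TPM.

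Known ligand and receptor pairs, chosen after the values were seen, were set side by side, with a single receptor for each ligand. EFNB1 and several called members, among them EPHA4 and EPHB3, were in no pair. EFNB2 and EPHB4 were both called higher. SEMA7A and its receptor PLXNC1 moved in opposite directions, the ligand averaging 13.0 ± 0.173 TPM with barasertib and 6.65 ± 0.750 TPM with DMSO and the receptor 5.04 ± 0.0511 TPM with barasertib and 8.66 ± 0.142 TPM with DMSO (SD, n = 2 each). SEMA7A was thus the higher of the 2 with barasertib and PLXNC1 the higher with DMSO. For EFNA1 with EPHA2, SEMA4D with PLXNB1, SEMA4C with PLXNB2 and SEMA3E with PLXND1, the receptor was called higher and the ligand was not called. For SEMA3A with PLXNA1 the ligand alone was called higher, and for EFNA5 with EPHA3 the ligand alone was called lower. Neither SEMA6A nor its receptor PLXNA2 was called, and the ligand averaged 109.5 ± 0.677 TPM with barasertib and 100.1 ± 3.33 TPM with DMSO against 2.56 ± 0.0784 TPM with barasertib and 2.79 ± 0.285 TPM with DMSO for the receptor. In this pair the ligand message was far more abundant in each group, as it was for SEMA4C and PLXNB2.

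**Figure D4:**
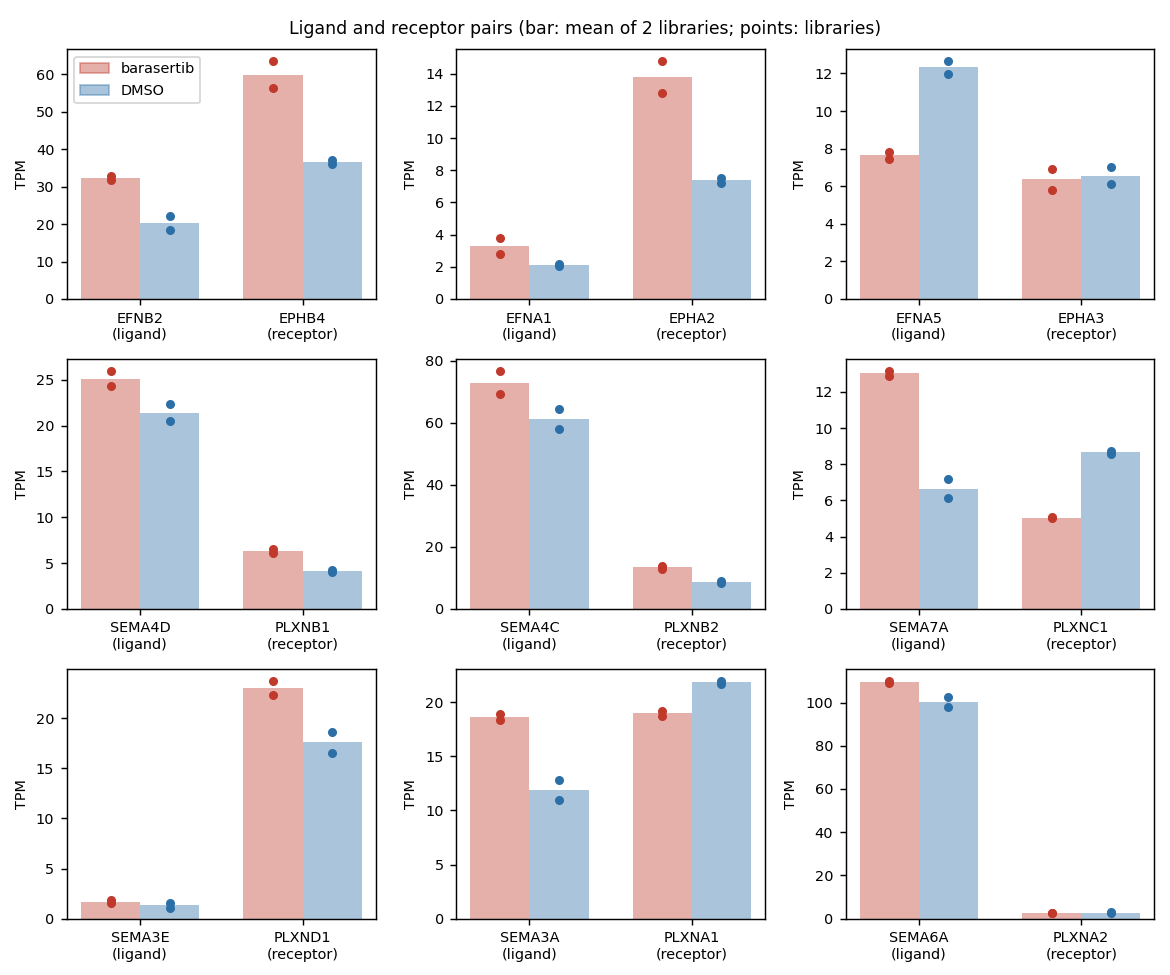
TPM of 9 ligand and receptor pairs; bars are means of 2 libraries, points are the libraries, barasertib left of DMSO. EFNB2 and EPHB4 stand higher with barasertib, and SEMA7A and PLXNC1 change places.

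The neuropilins, co-receptors of class 3 semaphorins, were not called with all 4 libraries. NRP1 was at 46.3 and 48.4 TPM in the barasertib libraries, against 54.4 and 35.4 TPM in the DMSO libraries, with the DMSO libraries on either side of the barasertib pair and a difference of 0.11 ± 0.18 (limma adjusted p = 0.690). With DMSO replicate 1 left out the NRP1 difference was 0.41 and was called higher (limma adjusted p = 0.0188, range 0.0188 to 0.975), and it was -0.20 with DMSO replicate 2 left out and -0.03 with median-of-ratios scaling. NRP2 was at 21.3 and 21.7 TPM in the barasertib libraries, against 19.7 and 23.7 TPM in the DMSO libraries, with a difference of -0.01 ± 0.10 (limma adjusted p = 0.967) and a range of 0.355 to 0.980 over the alternatives. Of the 29 tested co-receptors and signalling genes of semaphorins and plexins, 10 rose and 2 fell (34.5% and 6.90%, against 22.0% and 7.44% of all tested genes). Under all 3 scalings 7 rose and 2 fell, against 10.0% and 7.05% of all tested genes. The largest rises were in the collapsin response mediators, cytosolic proteins that carry the SEMA3A signal to the cytoskeleton. CRMP1 was at 17.2 and 16.2 TPM in the barasertib libraries, against 3.34 and 3.83 TPM in the DMSO libraries, a difference of 1.95 ± 0.10 (limma adjusted p = 0.000340). DPYSL4, of the same family, was at 15.9 and 14.2 TPM in the barasertib libraries, against 5.77 and 4.70 TPM in the DMSO libraries, a difference of 1.37 ± 0.12 (limma adjusted p = 0.00126). RND1, a small GTPase that binds plexins, was at 12.8 and 12.7 TPM in the barasertib libraries, against 4.70 and 4.53 TPM in the DMSO libraries, a difference of 1.29 ± 0.09 (limma adjusted p = 0.000706). MICAL2, an actin-oxidising enzyme, was at 0.594 and 1.17 TPM in the barasertib libraries, against 3.60 and 3.22 TPM in the DMSO libraries and fell by 1.24 on the log2 scale (limma adjusted p = 0.00803). It passed the minimum only through the DMSO libraries. The collapsin response mediators did not all rise, since DPYSL3, the most abundant of them here, fell, at 599 ± 25.1 TPM with barasertib and 739 ± 5.02 TPM with DMSO, a difference of -0.30 ± 0.04 (limma adjusted p = 0.00466).

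Partners of Eph and ephrin signalling were also counted. Of 24 tested, 7 rose and 3 fell (29.2% and 12.5%, against 22.0% and 7.44% of all tested genes). Under all 3 scalings 4 rose and 3 fell, against 10.0% and 7.05% of all tested genes. NGEF (ephexin), an exchange factor that EphA receptors activate, was at 7.75 and 7.51 TPM in the barasertib libraries, against 4.65 and 3.60 TPM in the DMSO libraries. It rose by 0.76 ± 0.13 (limma adjusted p = 0.0101). With barasertib replicate 1 or 2 left out the difference was 0.74 and 0.78 and was not called (limma adjusted p = 0.0655 and 0.0571, range 0.00380 to 0.0655). SDCBP (syntenin), a scaffold that binds the tail of ephrin-B, was at 190.1 and 199 TPM in the barasertib libraries, against 127 and 133 TPM in the DMSO libraries, a difference of 0.58 ± 0.05 (limma adjusted p = 0.00122). TIAM1, an exchange factor for RAC, was at 32.8 and 33.8 TPM in the barasertib libraries, against 22.9 and 23.7 TPM in the DMSO libraries, a difference of 0.50 ± 0.07 (limma adjusted p = 0.00417). PICK1, another scaffold for ephrin-B and Eph receptors, was at 13.6 and 13.7 TPM in the barasertib libraries, against 10.4 and 9.44 TPM in the DMSO libraries, a difference of 0.43 ± 0.09 (limma adjusted p = 0.0169). PICK1 was not called with either barasertib library or DMSO replicate 2 left out (limma adjusted p = 0.0707, 0.0739 and 0.0719), nor after median-of-ratios scaling (0.0548, range 0.00972 to 0.0739). FYN, INPPL1 and RGS3 fell. FYN was called with DMSO replicate 1 left out (range 0.00445 to 0.0747), INPPL1 with barasertib replicate 1 left out (range 0.0117 to 0.146), and RGS3 with no library left out (range 0.0183 to 0.125), as limma adjusted p.

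Other guidance systems were also measured. Of 14 tested netrin, Slit, repulsive guidance and FLRT genes and their receptors, 3 rose and 1 fell (21.4% and 7.14%), close to the 22.0% and 7.44% of all tested genes. Under all 3 scalings 2 rose and 1 fell, against 10.0% and 7.05% of all tested genes. UNC5A, a netrin receptor, was at 5.61 and 5.52 TPM in the barasertib libraries, against 2.66 and 3.08 TPM in the DMSO libraries, a difference of 0.76 ± 0.12 (limma adjusted p = 0.00804), and was not called without barasertib replicate 1 (limma adjusted p = 0.0536, range 0.00369 to 0.0536). ROBO1, a Slit receptor, was at 44.9 and 46.4 TPM in the barasertib libraries, against 35.5 and 35.9 TPM in the DMSO libraries, a difference of 0.34 ± 0.06 (limma adjusted p = 0.00930). RGMB, a ligand of neogenin and a co-receptor of bone morphogenetic proteins, was at 14.5 and 15.2 TPM in the barasertib libraries, against 22.7 and 22.4 TPM in the DMSO libraries and fell by 0.57 on the log2 scale (limma adjusted p = 0.00368). DRAXIN, a secreted antagonist of netrin signalling, was at 158 and 170.4 TPM in the barasertib libraries, against 135 and 139.8 TPM in the DMSO libraries. It rose by 0.25 ± 0.06 (limma adjusted p = 0.0207). After median-of-ratios scaling and quantile normalisation its difference was 0.12 and 0.14 and was not called (limma adjusted p = 0.164 and 0.102, range 0.00972 to 0.164). With barasertib replicate 2 or DMSO replicate 1 left out it was 0.20 and 0.23, also not called (limma adjusted p = 0.0783 and 0.0755).

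**Figure D5:**
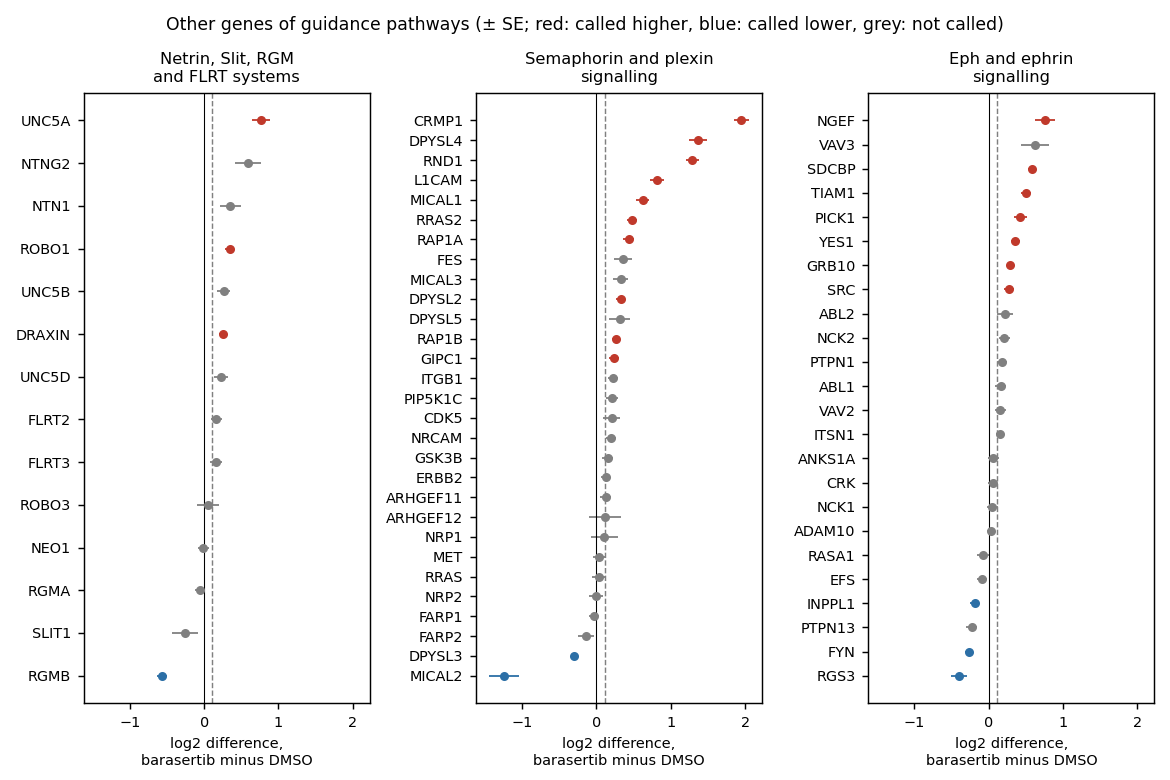
Log2 difference (barasertib minus DMSO, ± SE) of the tested genes of 3 lists of other guidance and signalling genes, red where called higher, blue where called lower, with a dashed line at the median of all tested genes. CRMP1, DPYSL4 and RND1 lie farthest to the right and MICAL2 farthest to the left.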

How the data were processed

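RNA was measured in 4 libraries of the NCC-IT-A3 line. Per the labels' protocols, libraries came from total RNA with a stranded kit for mRNA. HISAT2, StringTie and hg19 are named in the submitters' processing notes; their versions, their options and any use of strand are not stated there. Per the file headers, the deposited columns are TPM, FPKM and coverage (a signal, used only to estimate depth). Rows were summed per gene ID, and RefSeq symbols (GRCh38.p14) matched 27559 of 27685 IDs. Tests used limma 3.58.1 (R 4.3.3) with treatment as the sole factor and a mean-variance trend, on log2(TPM + 1) of genes averaging 1 TPM or more; the fit was tested on simulated data. Python 3.11.15 and matplotlib 3.10.9 made tables and plots. The members, lists and pairs were chosen with earlier results of these data known, and the pairs after the values were seen. Per family, up to 8 called members and the 3 most abundant, and per list up to 4 called genes with the largest change, are given in full; other genes named with values, among them NRP1, NRP2 and DPYSL3, were chosen after their values were seen. Alternatives were the pseudocount, minimum, scaling, FPKM, moderation, a replicate block, each library left out and a 2-fold threshold. A further gene list was compiled and is not reported here.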

Additional observations from a re-analysis of the deposited data

How the results depend on the processing

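Over all tested genes, 1534 were called higher and 1891 lower after median-of-ratios scaling and 1649 and 1590 after quantile normalisation, so the share of higher calls was 44.8% and 50.9%, against 74.8% in TPM; 674 were lower without the mean-variance trend. With a 2-fold threshold 292 genes were higher and 87 lower, and 3 members higher (2 ligands, 1 receptor; 1 Eph receptor, 2 semaphorins, 0 ephrins, 0 plexins) and 0 lower in each of these groups; of the lists, semaphorin signalling kept 3 higher and 1 lower and the other 2 lists 0. After quantile normalisation 4 members were lower (2 ligands, among them 1 semaphorin, and 2 receptors, both plexins), and after median-of-ratios scaling 2 receptors were lower, both plexins. Plexins called higher numbered 1 after either scaling and 1 without a minimum. With a minimum of 5 TPM 3 semaphorins were higher, and 1 semaphorin signalling gene was lower. Partners of Eph signalling called higher numbered 4 after median-of-ratios scaling, and those lower 1 without a minimum and 0 without the trend. Members that were not called changed sign. EFNA4 had differences of -0.0453 and -0.009 after median-of-ratios scaling and quantile normalisation, SEMA6A -0.0052 after median-of-ratios scaling, SEMA4F -0.0316 and -0.1078 and SEMA5A -0.0168 and -0.1552 after median-of-ratios scaling and quantile normalisation, and EPHB2 -0.027 and SEMA3E -0.0207 after quantile normalisation. With a library left out the difference ran from -0.148 to 0.0734 for EPHA3, -0.076 to 0.0679 for PLXNA3, -0.346 to 0.022 for SEMA3C, -0.0044 to 0.163 for SEMA4F and -0.0041 to 0.128 for SEMA5A. With each library left out, the calls ran from 1365 to 2181 higher and 601 to 699 lower for all genes, 8 to 15 and 2 for the members, 4 to 8 and 1 for ligands as well as for receptors, 4 to 6 and 0 for Eph receptors, 1 to 2 and 1 for ephrins, 2 to 6 and 0 for semaphorins, 0 to 2 and 1 for plexins, 2 to 3 and 1 for other guidance genes, 7 to 12 and 2 for semaphorin signalling and 4 to 6 and 0 to 1 for Eph signalling. The causes were not tested.

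With the replicate number as a block, 18 members were higher and 2 lower and 3218 and 1080 genes in all; EFNA2 (limma adjusted p = 0.0478, range 0.0312 to 0.173) and SEMA4C (0.0216, range 0.0216 to 0.347) were then called. Same-numbered libraries deviated from their group means with r = 0.02 over the tested genes. With 2 libraries a group this is a single correlation, so it cannot decide whether the numbers pair the samples. No called member changed sign under any setting. With 2 libraries a group, replicate error rests on 2 residual degrees of freedom, and members near 1 TPM are the least precise.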

Other observations

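Several members lie beside each other in the genome, and differences between neighbours were not tested. EFNA4 (chr1:155036213-155042029 in hg19), EFNA3 (chr1:155051348-155060014) and EFNA1 (chr1:155100349-155107386) stand in a row on the plus strand; EFNA3 in the middle was called higher, and EFNA4 and EFNA1 were not called (limma adjusted p = 0.383 and 0.0856, in ranges of 0.365 to 0.938 and 0.0699 to 0.310). The ratio of mean TPM was 1.06 for EFNA4, 1.56 for EFNA3 and 1.58 for EFNA1. The class 3 semaphorins SEMA3C (chr7:80371852-80551695), SEMA3E (chr7:82993222-83278479), SEMA3A (chr7:83587659-83824217) and SEMA3D (chr7:84624872-84751247) share the minus strand of chromosome 7, and SEMA3A was the called one, with differences of -0.16, 0.21 and -0.22 for SEMA3C, SEMA3E and SEMA3D. EPHA8 (chr1:22889995-22930087) and EPHB2 (chr1:23037331-23247993) are neighbours on chromosome 1. In each, both barasertib libraries lay above both DMSO libraries, as in 49.1% of all tested genes. EPHA8, which passed the minimum only through the barasertib libraries, was called and EPHB2 was not. These positions were looked up after the values were seen.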
